A study of Rattus norvegicus with 9 samples.

Results

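The probes described here are 972 catalogue oligonucleotides of a rat one-colour Agilent array that were far brighter on the 4 arrays scanned on the earlier of 2 days than on the 5 arrays scanned on the later day. They were chosen by their signal: a catalogue probe entered if it was well above background on all 4 earlier arrays and if its mean level there exceeded its mean level on the later arrays by 3 or more on the log2 scale. The array carries 40351 distinct sample probes, of which 30367 are catalogue probes and 9984 are custom probes. Of the catalogue probes, 14650 were well above background on all 4 earlier arrays, so the members were 3.20% of the catalogue probes and 6.63% of those 14650. A level is the log2 processed signal of a probe minus the 75th percentile of all sample probes on the same array, so a level of 0 lies at that percentile.

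All samples were labelled as cerebral cortex of male Wistar rats. In the CA group (5 rats) ventricular fibrillation was induced with alternating current under pentobarbital at 30 mg/kg, resuscitation began 8 minutes later, and sampling followed 2 h after the return of spontaneous circulation. The control group comprised 4 sham-operated rats. The earlier scan day held CA replicates 3, 4 and 5 and control replicate 1, and the later day held CA replicates 1 and 2 and control replicates 2, 3 and 4. Scan day therefore held both groups, but the earlier day held 1 control. The 5 later arrays shared slide 1. CA replicates 3 and 4 and control replicate 1 shared slide 2, and CA replicate 5 was on slide 3. No slide held arrays of both days, so day and slide cannot be told apart. Between 49.7% and 61.8% of the sample probes were well above background on the earlier arrays, and between 70.3% and 73.4% on the later ones. The lowest level of a probe well above background lay between -3.98 and -2.53 on the earlier arrays. On the later arrays it lay between -5.51 and -5.10. How this bears on the size of the day differences was not tested. No sample spot was saturated, and the number of arrays limits the precision.

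In the scanner signals, marker probes of neurons and oligodendrocytes were lower on the 4 earlier arrays than on the later ones, though all were labelled as cortex. A probe that encodes a segment of SNAP-25, a synaptic protein of neurons (A_64_P019966), had levels of 5.85, 6.20, 6.79, 6.74 and 7.18 on the later arrays. On the earlier arrays its levels were -0.83, -5.14, -3.35 and -4.41, and it was well above background on 2 of them. A probe for myelin proteolipid protein (A_44_P165732), made by oligodendrocytes, ranged from 6.42 to 8.23 on the later arrays and from -0.44 to 0.80 on the earlier ones. All 7 neuron and oligodendrocyte probes found were lower on the earlier day, with earlier minus later differences from -9.98 to -2.52. The neuron probes were not well above background on all 4 earlier arrays, so the sizes of their differences are not exact. With another background correction (normexp) the 7 differences ran from -7.63 to -0.50. In the deposited value table, described next, they ran from -0.04 to 1.63. The member values below rest on these 4 arrays, and scan day and whatever RNA those arrays carried cannot be told apart.

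The deposited value table showed almost none of the day difference. Over the same 972 probes, its median earlier minus later difference was -0.10 on its log2 scale, 310 probes were above 0, and the rule applied to that table kept 8 probes, 2 of them shared with the members. The steps that made that table are not given in the sources used here. The differences reported here are those of the scanner signals.

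Heart muscle contracts through thick filaments of myosin, whose heavy chains carry regulatory and essential light chains, sliding along thin filaments of actin, tropomyosin and the troponin complex. Heart muscle burns fatty acids as its main fuel, and under wall stress it secretes natriuretic peptides. Several of these proteins have heart forms that are used as markers of heart muscle and are not characteristic of cortex.

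The files pair no catalogue probe with a gene, so the proteins below were read from the translation of each 60-base probe. The names rest on recognition of the translated residues, made with the signals already known, and were not aligned to a protein database. A total of 62 members (6.38%) were named in this way, 27 as a single protein and 35 as a family, and the other 910 were left unnamed. The 62 are the members that were recognisable and are not a sample of the 972, so their make-up gives no proportions for the rest. For 59 of the 62 the reading frame was open over the whole probe.

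The probes read as heart-muscle, natriuretic peptide and fatty acid-binding proteins, whose levels are described below, are printed 5′ to 3′, with the codons of the reading frame in capitals.
A_44_P397163, ventricular myosin regulatory light chain: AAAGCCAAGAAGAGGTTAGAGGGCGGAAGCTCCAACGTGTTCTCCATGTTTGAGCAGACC
A_44_P188441, ventricular myosin essential light chain: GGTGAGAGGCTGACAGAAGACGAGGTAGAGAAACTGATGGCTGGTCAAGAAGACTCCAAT
A_42_P676553, cardiac troponin I: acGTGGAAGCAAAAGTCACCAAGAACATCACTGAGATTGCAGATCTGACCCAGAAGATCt
A_64_P029501, cardiac and slow-muscle troponin C: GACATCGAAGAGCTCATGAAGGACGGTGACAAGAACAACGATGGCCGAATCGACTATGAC
A_42_P756334, alpha cardiac myosin heavy chain: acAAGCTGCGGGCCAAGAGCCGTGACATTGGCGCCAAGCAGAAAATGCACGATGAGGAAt
A_42_P638494, brain natriuretic peptide: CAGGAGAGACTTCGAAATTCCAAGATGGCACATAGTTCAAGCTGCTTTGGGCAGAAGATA
A_64_P011099, ribosomal protein L3-like: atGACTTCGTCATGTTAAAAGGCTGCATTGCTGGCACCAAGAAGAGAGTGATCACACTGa
A_44_P262091, heart fatty acid-binding protein: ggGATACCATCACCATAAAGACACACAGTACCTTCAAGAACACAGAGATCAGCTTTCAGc
A_43_P12786, adipocyte fatty acid-binding protein: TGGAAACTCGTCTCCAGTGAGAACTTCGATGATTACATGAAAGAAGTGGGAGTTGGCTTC

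Over the 638 members that were well above background on all 5 later arrays, the earlier minus later difference ran from 3.00 to 11.66, with a median of 3.77 and quartiles of 3.32 and 4.54. These values chose the members and are given without a test. The median member level was 1.42, 1.72 and 1.73 on CA replicates 3, 4 and 5 and 1.59 on control replicate 1. On the later arrays it was -2.71 and -3.05 on CA replicates 1 and 2 and -3.03, -3.05 and -3.15 on control replicates 2, 3 and 4. For 952 members the lowest earlier array lay above the highest later array. The choice of members favours this, and the count was not set against other probes. Among single members, the median range over the 4 earlier arrays was 0.88 and over the 5 later arrays 0.99.

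A further 122 members were well above background on no later array. For those 122 the later level is only a bound, so the brighter mean was set against, for each later array, the higher of the probe's own level and the lowest level of any probe well above background there. The resulting lower bounds ran from at least 6.77-fold to at least 12700-fold, with a median of 37.1-fold. With the 5th percentile of the detected probes' levels as a higher floor, they ran from 3.43-fold to 6169-fold, with a median of 17.5-fold, so the sizes below depend on the floor. Just inside the threshold lay A_64_P021398, A_42_P834903 and A_44_P405583, each at 3.00, and just outside lay A_64_P164130, A_44_P511204 and A_44_P189476, also 3.00 after rounding.

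The members named as contractile proteins of striated muscle comprised 13 probes. The 10 of them that were well above background on all later arrays had differences from 3.12 to 11.66, with a median of 9.88. The probe for the ventricular myosin regulatory light chain had levels of 7.49, 8.42, 8.41 and 7.59 on the earlier arrays (CA replicates 3, 4 and 5, then control replicate 1) and was not well above background on any later array. Its signal was at least 9760-fold higher on the earlier day, or 4683-fold with the higher floor. The ventricular essential light chain probe stood at 7.33, 7.85, 7.86 and 7.49. It was at least 7800-fold higher, or 3689-fold with the higher floor. Both groups of the earlier day were therefore high, and the 4 values of each probe lay within 1 log2 unit of each other.

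Troponin probes showed the same order. Cardiac troponin I, the inhibitory subunit, stood at 7.29, 8.40, 8.25 and 7.63 on the earlier arrays and ranged from -7.19 to -2.79 on the later ones, where it was well above background on 2 arrays. Troponin C, the calcium sensor, stood at 6.33, 7.29, 7.41 and 6.48 and lay between -4.43 and -3.97 on the later arrays. Cardiac troponin T (A_64_P088136), which ties the complex to tropomyosin, stood at 7.21, 8.02, 8.13 and 7.34 and lay between -4.38 and -1.83. For each of these 3 probes every earlier value lay above every later one, as for 952 of the 972 members.

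Myosin heavy chain, the motor protein, was read in 4 members. The alpha cardiac form stood at 8.55, 9.27, 9.82 and 8.95 on the earlier arrays and lay between -2.47 and -1.58 on the later ones, a difference of 11.10. A probe of skeletal type (A_64_P079553) differed by 4.53 and stood at 2.05, 2.78, 3.55 and 2.31. A separate search with a fast skeletal light chain found 1 catalogue probe (A_44_P1005462), which was not well above background on any of the 9 arrays.

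Brain natriuretic peptide, a hormone of the stressed heart despite its name, stood at 7.04, 5.91, 6.25 and 5.20 on the earlier arrays. It was not well above background on any later array, a difference of at least 2700-fold, or 1276-fold with the higher floor. The cardiac ankyrin repeat protein (A_44_P284753), a stress-responsive regulator in heart muscle, stood at 8.14, 8.76, 8.48 and 8.13. That was at least 12700-fold higher than on the later day, or 6169-fold with the higher floor. FHL2 (A_44_P390700), a LIM-domain adaptor abundant in heart, stood at 6.05, 6.35, 6.52 and 6.35 and lay between -0.07 and 0.99 on the later arrays. Ribosomal protein L3-like, the striated muscle form of a ribosomal protein, stood at 3.23, 3.43, 3.46 and 3.65. It was at least 428-fold higher, or 202-fold with the higher floor.

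Fatty acid and mitochondrial energy proteins were read in 12 members, and the 11 that were well above background on all later arrays had a median difference of 3.66. Heart fatty acid-binding protein stood at 6.81, 7.67, 7.14 and 7.09 on the earlier arrays and lay between -0.79 and 0.22 on the later ones. The adipocyte form stood at 3.72, 4.14, 4.25 and 3.14 and was at least 552-fold higher, or 261-fold with the higher floor. The subunits of the trifunctional protein, which carries out the last steps of long-chain fatty acid oxidation, differed by 4.63 (beta, A_42_P655644) and 3.85 (alpha, A_64_P055984).

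Matrix, vessel and smooth muscle proteins were read in 15 members. The 13 that were well above background on all later arrays had differences from 3.05 to 7.03. Decorin (A_42_P647599), a collagen-binding proteoglycan, stood at 4.98, 5.41, 5.51 and 5.79 on the earlier arrays and lay between -0.71 and 0.41 on the later ones. Lumican (A_44_P458627), a related proteoglycan, stood at 2.03, 2.23, 2.79 and 3.43 and lay between -2.68 and -1.30. Matrix Gla protein (A_42_P588944), an inhibitor of calcification, stood at 4.03, 4.80, 5.41 and 5.28.

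MHC class I heavy chains, which present peptides to cytotoxic T cells, were read in 14 members with differences from 3.18 to 4.78. Some share sequence: 15 of their 91 pairs had in common a run of at least 15 bases, the longest being 43 bases. That pair is printed to show the overlap, with codons in capitals.
A_64_P057222: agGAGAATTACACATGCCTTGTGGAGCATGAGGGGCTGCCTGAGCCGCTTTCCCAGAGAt
A_64_P090475: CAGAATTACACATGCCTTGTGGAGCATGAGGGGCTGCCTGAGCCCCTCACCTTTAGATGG
The first stood at 4.90, 5.31, 5.46 and 6.31 on the earlier arrays and the second at 4.30, 4.63, 4.92 and 5.78. All 14 were well above background on all 5 later arrays. These are related probes read on the same arrays and are not replicates. On the later day 9 of the 14 were higher in CA, with a median of 0.21, and none passed the test. On the earlier day 13 of the 14 were lower in CA than in the single control, with a median of -1.01, and none passed the test. The widest spread was in A_44_P296155, with 1.21, 1.63 and 1.66 in CA against 5.79 in control replicate 1 (limma, adjusted p = 0.0888).

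By sequence the members resembled the rest of the catalogue. Their median GC content was 45.0%, as over all catalogue probes, and 88.9% had a sense frame open over the probe, against 85.4% of all catalogue probes and 87.4% of those well above background on all earlier arrays. Only 10 members shared a run of 30 bases with another member. Outside the members, 4 custom probes shared such a run with one, and their differences ran from 3.12 to 8.72. The 1 catalogue probe outside the members that shared such a run differed by 2.72.

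CA was then compared with control within each scan day. The rule used the means of these same arrays, and CA made up 3 of the 4 earlier and 2 of the 5 later ones, so a CA difference adds to the day difference and the members' shares are not read against those of all probes. On the earlier day (3 CA arrays against 1 control), 19 members were called higher and 10 lower in CA at an adjusted p under 0.05 (limma, Benjamini-Hochberg over 28964 probes). Over all probes tested, 0.280% were called higher and 0.169% lower. At an unadjusted p under 0.05, 176 members passed, and 10.0% of all probes did. For all 29 called members control replicate 1 lay outside the 3 CA arrays, which a call against 1 control nearly fixes. The control side is 1 array, whose spread was taken from the other groups. Without control replicate 3, which only informs that spread, no member was called, and the count lay between 0 and 44 with each array left out in turn. In the deposited table all 29 had the same direction and a larger size, by 1.23 to 3.74 times.

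The call with the smallest p was A_42_P535644, which was not named. Its levels on the earlier day were 5.71, 5.89 and 6.25 in CA and 2.32 in control, a difference of 3.63 (SE 0.34, limma adjusted p = 0.0129). In the deposited table the same difference was 11.87. On the later day it stood at 2.21 and 1.94 in CA and at -0.45, -1.01 and -0.69 in control, a difference of 2.79. It was thus higher in all 5 CA arrays than in the controls of the same day. A_43_P17442 differed by 5.08 among the earlier arrays and by 2.55 among the later ones. A_64_P164824 differed by 3.33 among the earlier arrays (adjusted p = 0.0149), by 12.45 there in the deposited table, and by -0.05 among the later arrays. Among those called lower, A_64_P025790 differed by -2.69 (adjusted p = 0.0207) and A_64_P013942 by -4.59 (adjusted p = 0.0253). Among the later arrays A_64_P025790 differed by -0.09 and A_64_P013942 by 0.22. A_64_P013942 was not well above background on any later array, so its later value is not an exact difference. Of the 29 members called on the earlier day, 18 had the same direction on the later day. Of the 29, 25 were well above background on all later arrays.

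On the later day (2 CA arrays against 3 controls), no member and 0% of all probes passed an adjusted p under 0.05 in limma. At an unadjusted p under 0.05, 139 members passed, and 3.00% of all probes did. Of those 139, 68 were not well above background on every later array. With both days in one fit and scan day as a block, 2 members were called higher and none lower, beside 0.0104% of all probes called higher and 0% lower. At an unadjusted p under 0.05, 146 members and 4.90% of all probes passed. The 2 called were A_42_P535644, at 3.11 (SE 0.24, limma adjusted p = 0.0221), and A_43_P11616 (limma adjusted p = 0.0401). The 3 later controls were not well above background for A_43_P11616, so its fitted size is not an exact difference and is not given. With control replicate 2, 3 or 4, control replicate 1, or CA replicate 1 or 2 left out, neither was called.

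The difference between the days in CA minus control passed for no member, beside 0.0207% of all probes. At an unadjusted p under 0.05, 122 members passed, and 6.28% of all probes did. None of the 62 named members was called in any CA comparison. The median CA minus control of the 13 contractile probes was 0.34 among the earlier arrays and 0.13 among the later ones, where 2 of them were not well above background on any array, beside 0.05 and 0.00 over all probes. A beta-globin probe (A_64_P088393), which reads red-cell RNA, stood at 7.28, 7.03 and 6.65 in CA and 4.32 in control on the earlier day. On the later day it stood at 6.23 and 4.30 in CA and at 3.72, 3.76 and 4.02 in control. There CA replicate 2 lay close to the controls. All 4 globin probes found were higher in each earlier CA array than in control replicate 1, and their part in the calls was not tested.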

How the data were processed

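RNA of 9 rats, labelled as cerebral cortex, was hybridised to one-colour arrays. Per the file headers and the submitters' processing notes, the authors extracted spot intensities with Agilent Feature Extraction 10.7.1.1. The deposited value table holds log2 values whose centring and further processing are not given in the sources used here. The well-above-background, saturation and outlier marks are other columns deposited in the scanner files. Outlier-marked spots were left out, spots of a probe were averaged as log2, and the array's 75th percentile was subtracted. A probe counted as well above background where most of its remaining spots were so marked. CA and control were compared with limma 3.58.1 in R 4.3.3 over 28964 probes well above background on at least 4 arrays, with Benjamini-Hochberg adjustment. The fit was tested on simulated data.

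Members, lists and protein names were chosen with earlier results of these data known. A match of translations to a RefSeq protein table had been planned and could not be run, because no such table was used here. In its place, names were read by recognition of the translations (Biopython 1.88), which is weaker evidence and is unverified. The planned rule for named genes depended on that match and was applied to these readings. It covers list genes, largest differences, called members, the 5 smallest p in each direction and the probes beside the threshold. Only some of the probes it covers are described above, and that choice followed no fixed rule. Probes for tissue markers were found by at least 10 shared residues with marker sequences written from general knowledge. The p-values rest on the spread between these rats, pooled over the groups. Control replicate 1, the only control of the earlier day, gave no spread of its own to the within-day tests.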

Additional observations from a re-analysis of the deposited data

Results flagged for a closer look

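In the control group, control replicate 1 lay apart from the other controls for 656 of the 972 members, by the gap to the nearest array over the group's range (above Dixon's 95% critical value). The choice of members fixes this count: it was the only control of the earlier scan day, on which the members were chosen to be bright. In the CA group, replicate 1 lay apart for 1 member and replicate 2 for 2 members. Chance flags about 1 in 20 groups, which is no measure for the 656.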

How the results depend on the processing

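The number of members depended on the background correction and the source of values: normexp gave 390 probes, and 8 came from the deposited values. The other alternatives gave 791 to 888 probes, and leaving out each array 957 to 1040. On the earlier day 29 members were called. Normexp gave 89, the deposited values gave 65, restricting the test to probes detected on every array gave 53, and array weights gave 48, while leaving out each array gave 0 to 44. The sizes of the 29 were 1.23 to 3.74 times larger in the deposited table. On the later day the count of 0 became 4 with normexp, 11 with probes detected on every array and 10 with array weights. In the both-day fit the count of 2 became 19, 26 and 28 under those settings. It became 1 with the other percentile, with quantile normalization and with slide as a block, 0 with the deposited table and without the scan day block, and 0 to 4 with each array left out. The difference between days went from 0 to 28 with normexp, 37 with the deposited table, 13 with probes detected on every array and 13 with array weights, and 0 to 2 with each array left out. With the replicate block and scan day, 0 members were called in the both-day fit. Residuals of same-numbered arrays correlated at 0.64, -0.07, 0.28 and -0.03. These mixed values do not settle whether the numbers paired the samples. The cause of these changes was not tested. A lone array left in a group was assumed to vary like the others.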
